A study of Mus musculus with 9 samples.

Results

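Cholesterol synthesis and sterol regulation were followed in 3T3-L1 cells, a mouse preadipocyte line that turns into lipid-filled adipocytes in a hormonal medium, through 30 genes chosen by name out of the 54532 genes in the deposited tables. They comprise 8 enzymes of the mevalonate and isoprenoid steps and 12 enzymes of the steps from squalene synthesis to cholesterol. The others are 4 genes of the SREBP2 machinery, 4 genes of uptake control, transport and storage, and 2 efflux transporters. All 30 had counts in every library and were tested in every comparison. The labels describe 3 groups with n = 3 libraries each, 9 in all. Undifferentiated cells had been kept at confluence for 3 days. Differentiated cells then received differentiation medium with 10 μg/mL insulin, 1 μM of the glucocorticoid dexamethasone, 1 μM of the PPARγ agonist rosiglitazone and 0.5 mM of the phosphodiesterase inhibitor IBMX. Lysfree cells received that medium without lysine, so their comparison with Differentiated addresses lysine. Per the paper's methods, the base medium and the serum also differed between growth and differentiation. The comparison of Differentiated with Undifferentiated therefore covers medium, serum and hormones together. That of Lysfree with Undifferentiated covers these and the lack of lysine. All groups came from the same cell line, and nothing in the labels says whether the 3 libraries of a group came from separate cultures. The p values below therefore set group differences against the spread between these libraries, and may not extend to separate cultures.

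Cells build cholesterol from acetyl-CoA. The mevalonate steps yield isoprenoid units, which are joined to farnesyl diphosphate, then to squalene, and squalene is closed and trimmed to cholesterol. The transcription factor SREBP2, encoded by Srebf2, is held in the endoplasmic reticulum by SCAP and the INSIG proteins while sterol is plentiful, and is cut free to activate sterol genes, often together with the factors NF-Y and SP1, when sterol is scarce. In the opposite direction, oxysterols activate the nuclear receptors LXR, whose known targets include the efflux transporters Abca1 and Abcg1 and the ubiquitin ligase Mylip, which removes lipoprotein receptors. Fat cells hold much free cholesterol in their membranes and at the surface of lipid droplets.

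Counts summed to between 15880144 and 21806693 per library. Lysfree 1 stood apart from the other Lysfree libraries, with a chi-square per degree of freedom over genes of 43.3 and 44.4 in its pairs against 2.76 for Lysfree 2 and 3. Among the 30 genes it differed from the mean of the other 2 libraries by more than 1.5-fold in Pmvk (0.334 of that mean), Mvd (0.565) and Idi1 (1.96). To a lesser degree Undifferentiated 2 also lay apart, at 12.3 and 6.49 in its pairs against 3.78 for Undifferentiated 1 and 3. The fibroblast and preadipocyte markers, 8 genes that fit the cell type on the labels, summed to 4510 to 4880 FPKM (fragments per kilobase of gene length, scaled to the library total by the authors) in Undifferentiated, 1220 to 1230 in Differentiated and 2340 to 2380 in Lysfree. Col1a1 and Col3a1 held most of the Undifferentiated sum, at means of 1890 and 1370 FPKM. Fn1 and Thy1 were instead highest in Lysfree, at means of 719 and 89.1 FPKM against 380 and 70.4 in Undifferentiated. The 10 adipocyte markers summed to 328 to 413, 7090 to 7440 and 296 to 412 FPKM in the same groups. Lpl was the largest part of the sums in Undifferentiated and Lysfree, at means of 146 and 188 FPKM. Single markers differed between these groups, as given with the other programmes. The immune markers, 6 genes, summed to between 1.63 and 5.02 FPKM, with Adgre1 at 0 throughout. Nearly all of this was Cd68, at means of 1.65 FPKM in Undifferentiated, 4.12 in Differentiated and 4.4 in Lysfree. The 4 endothelial markers summed to at most 0.188 FPKM, with Tie1 at 0.

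Promoter sequences show what the regulatory DNA of these genes looks like. The RefSeq promoter table (build GRCm38.p6, from 250 bases before to 50 bases after an annotated start) held 31 windows for 25 of the 30 genes. Fdps, Fdft1, Sqle, Stard4 and Abcg1 were not matched. The windows were searched on both strands for the NF-Y box (CCAAT), the GC box bound by SP1 (GGGCGG) and a strict core of the sterol regulatory element (TCACNCCAC). Matches were counted for each motif on its own, whether or not they overlapped another motif. The NF-Y box was found in 22 of the 25 genes (88.0%), against 41.1% of 27025 genes with a window and 43.4% of the 10049 genes among them that passed an expression filter. The GC box was found in 23 (92.0%), against 38.2% and 68.0%. The sterol core was found in 1 gene, Hmgcs1 (4.0%), against 1.44% and 1.39%, and its absence elsewhere says only that these exact letters are not in the window. The 6 stretches below were chosen with their values known, for genes that the results turn on, and show the bases before the start that lie in no annotated exon, 5′ to 3′ on the strand of the gene, with the NF-Y box (CCAAT or its complement ATTGG) and the sterol core in capitals. In their labels, fell and rose refer to changes of at least 2-fold.
Hmgcs1 (chr13:119690101-119690350, plus strand; the first enzyme of the dedicated path, with 3 NF-Y boxes and the sterol core 137 bases before the start): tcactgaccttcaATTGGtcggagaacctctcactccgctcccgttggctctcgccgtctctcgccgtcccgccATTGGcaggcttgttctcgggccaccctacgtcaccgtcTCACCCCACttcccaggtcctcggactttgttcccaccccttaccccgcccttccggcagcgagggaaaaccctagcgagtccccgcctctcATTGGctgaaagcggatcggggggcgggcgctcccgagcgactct
Insig1 (chr5:28071162-28071362, plus strand; the largest fall without lysine, with 1 NF-Y box): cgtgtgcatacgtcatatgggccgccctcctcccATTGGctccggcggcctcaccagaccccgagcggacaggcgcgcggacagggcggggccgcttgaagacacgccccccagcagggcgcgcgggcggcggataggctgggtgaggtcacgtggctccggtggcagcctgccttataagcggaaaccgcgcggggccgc
Mvk (chr5:114444061-114444268, plus strand; below the Undifferentiated level without lysine, with 5 NF-Y boxes): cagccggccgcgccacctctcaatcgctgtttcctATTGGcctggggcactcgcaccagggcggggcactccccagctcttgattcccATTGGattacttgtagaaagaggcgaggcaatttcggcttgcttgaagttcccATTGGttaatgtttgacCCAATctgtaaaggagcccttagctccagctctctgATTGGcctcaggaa
Nsdhl (chrX:72918412-72918520, plus strand; below the Undifferentiated level without lysine, with 2 NF-Y boxes): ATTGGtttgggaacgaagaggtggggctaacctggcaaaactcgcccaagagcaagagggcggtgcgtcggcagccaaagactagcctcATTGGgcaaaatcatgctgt
Mylip (chr13:45389492-45389741, plus strand; the gene that fell in the differentiation medium, with 3 NF-Y boxes): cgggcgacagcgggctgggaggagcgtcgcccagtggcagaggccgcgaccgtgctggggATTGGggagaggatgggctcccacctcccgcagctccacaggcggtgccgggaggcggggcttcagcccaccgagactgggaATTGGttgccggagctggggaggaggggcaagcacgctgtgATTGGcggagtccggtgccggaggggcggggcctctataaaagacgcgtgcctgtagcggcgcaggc
Soat1 (chr1:156474332-156474578, minus strand; the gene that rose without lysine, with 1 NF-Y box): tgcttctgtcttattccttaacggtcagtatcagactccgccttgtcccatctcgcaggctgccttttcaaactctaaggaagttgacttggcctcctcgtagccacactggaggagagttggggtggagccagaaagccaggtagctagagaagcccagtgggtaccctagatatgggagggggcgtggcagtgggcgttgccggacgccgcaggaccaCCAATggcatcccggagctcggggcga

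**Figure D1:**
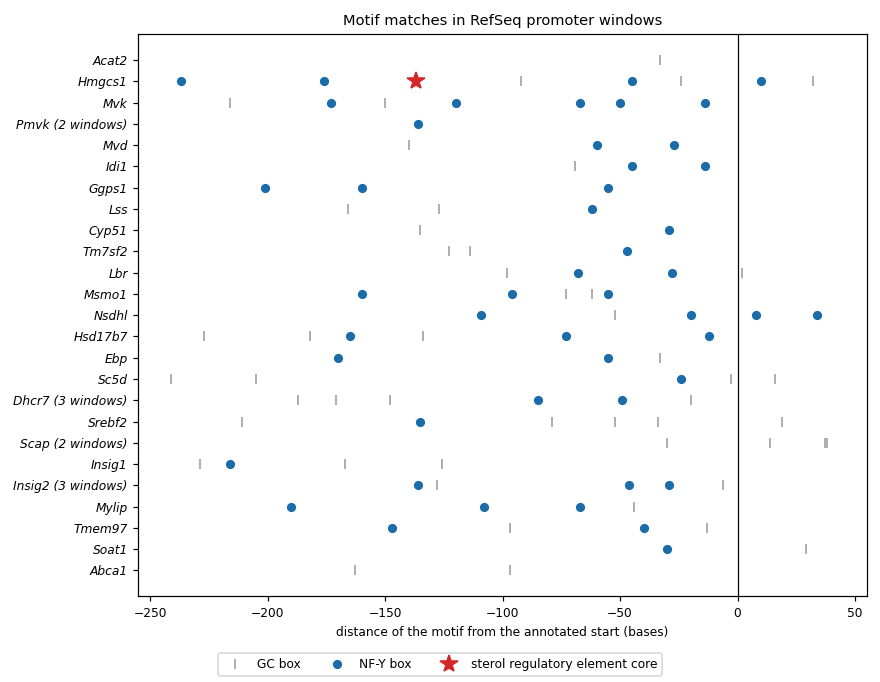
Positions of the NF-Y box (circles), the GC box (ticks) and the sterol regulatory element core (star) in the promoter windows of 25 genes, as the distance in bases from the annotated start, with several windows of a gene drawn on the same line. Most genes carry an NF-Y box before the start, and the sterol core appears in Hmgcs1.

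To describe the change in the differentiation medium, Differentiated and Undifferentiated cells were compared first. Nearly the whole path rose. Of the 30 genes, 21 were higher in Differentiated, 1 was lower and 8 did not reach the thresholds, where a gene was counted as changed at an adjusted p under 0.05 (edgeR quasi-likelihood test, Benjamini-Hochberg) and an at least 2-fold difference. Over the 24402 genes tested, 10.4% were higher and 11.4% lower. The median log2 fold change of the 30 genes was 2.34, against 0.02 over all genes tested. FPKM did not overlap between the groups in any of the 30 genes, while 50.9% of all genes tested had groups that did not overlap. In bulk RNA, a change in the number of cells of a type and a change in the RNA per cell cannot be told apart. For 3 libraries against 3 the smallest p of an exact permutation test is 0.1, and the p values here come from edgeR's fit across all genes instead.

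Among the mevalonate and isoprenoid steps, 7 of 8 genes rose, and the summed level went from 70.1 to 80.6 FPKM in Undifferentiated to 468 to 482 in Differentiated. Hmgcs1 (ENSMUSG00000093930, mm10 chromosome 13, 119690379 to 119708260), which joins acetoacetyl-CoA and acetyl-CoA to HMG-CoA, was at 21.4, 22.3 and 22.8 FPKM in Undifferentiated and at 166, 167 and 161 in Differentiated. This was a log2 fold change of 2.87 ± 0.05 (SE), with an adjusted p (edgeR) below the smallest number that R can store, as for most of the rises in this comparison. Acat2, the thiolase that supplies acetoacetyl-CoA, went from 22.6 ± 2.78 FPKM (SD, n = 3) to 115 ± 6.1. Mvd, which forms isopentenyl diphosphate, had the largest log2 fold change of these steps, at 3.31 ± 0.08, from 6.11 ± 0.618 to 62.2 ± 1.5 FPKM. Pmvk, the kinase before it, was at 5.78, 8.65 and 6.27 FPKM in Undifferentiated and at 70.2, 66.2 and 68.4 in Differentiated. Mvk, mevalonate kinase, rose less, with a log2 fold change of 1.82 ± 0.08 (edgeR adjusted p = 1.8e-116). Idi1, the isomerase of the isoprenoid units, went from 4.09 ± 0.113 to 28.6 ± 1.29 FPKM. Fdps, which makes farnesyl diphosphate, went from 0.491 ± 0.152 to 4.33 ± 0.0315 FPKM, a level that is uncertain because its near-identical copies held more counts than it did, as described with the copies. Ggps1, which leads away from sterols to geranylgeranyl diphosphate, was the exception at 5.15 ± 0.149 and 6.31 ± 0.326 FPKM, with a log2 fold change of 0.27 ± 0.09.

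Of the enzymes from squalene synthesis to cholesterol, 9 of 12 rose, and their summed level went from 104 to 105 FPKM to 569 to 582 FPKM. Lss (ENSMUSG00000033105, chromosome 10, 76531588 to 76557138), which closes squalene epoxide to lanosterol, had the largest change of all 30 genes, from 3.69, 3.23 and 3.31 FPKM to 46.7, 45.6 and 45.5, a log2 fold change of 3.72 ± 0.06. Sqle, which makes the epoxide and is a rate-limiting step, was at 19.4, 19.8 and 19.3 FPKM against 101, 101 and 99.6. These groups were far apart and tight. Fdft1, squalene synthase, went from 8.93 ± 0.376 to 54.3 ± 2.69 FPKM, and Cyp51, the lanosterol demethylase, from 12.8 ± 0.241 to 102 ± 1.18 FPKM. The sterol demethylation enzymes Msmo1, Nsdhl and Hsd17b7 had log2 fold changes of 2.52 ± 0.06, 3.15 ± 0.06 and 3.44 ± 0.07. Dhcr7, the last reductase of one branch, went from 4.9 ± 0.442 to 46.8 ± 1.01 FPKM. The sterol C14 reductase step can be carried out by Tm7sf2 or Lbr, and the pair differed in size. Tm7sf2 went from 1.17 ± 0.0894 to 3.1 ± 0.0412 FPKM (log2 fold change 1.38 ± 0.13), and Lbr, which is also a receptor of the nuclear lamina, from 5.56 ± 0.256 to 9.39 ± 1.05 FPKM (0.73 ± 0.08), short of 2-fold. Sc5d, the desaturase, had a log2 fold change of 0.97 ± 0.07, just short of 2-fold. Ebp, the sterol isomerase, was at 17.6, 17.4 and 18 FPKM in Undifferentiated and at 15.6, 14.7 and 17.3 in Differentiated, with a log2 fold change of -0.18 ± 0.08 (edgeR adjusted p = 0.045). With the adjusted p alone, the other 19 enzymes were higher in Differentiated and Ebp was lower.

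In the SREBP2 machinery, Insig1 rose and the other 3 genes stayed within 2-fold. Insig1 (ENSMUSG00000045294, chromosome 5, 28071363 to 28078662), itself a well-known SREBP target and the brake on SCAP, was at 15.5, 18.1 and 17.3 FPKM in Undifferentiated and at 190, 190 and 194 in Differentiated. This was a rise of 3.47 ± 0.06 on the log2 scale, and no other of the 30 genes reached its level in Differentiated. Srebf2 was at 28.2 ± 1.67 FPKM in Undifferentiated and 53.1 ± 0.927 in Differentiated, a log2 fold change of 0.89 ± 0.05 (edgeR adjusted p = 8.0e-62). Scap, the escort of SREBP, was at 17.4 ± 0.77 and 11.7 ± 0.335 FPKM, a log2 fold change of -0.59 ± 0.06. Insig2 was at 12 ± 0.559 and 18.2 ± 0.381 FPKM.

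Transport, storage and efflux genes moved in both directions. Stard4, a carrier of cholesterol between membranes, went from 4.97 ± 0.363 to 30.1 ± 0.53 FPKM, and Tmem97, the sigma-2 receptor, which takes part in sterol transport from lysosomes, from 20.7 ± 1.57 to 82.8 ± 2.59 FPKM. Mylip (ENSMUSG00000038175, chromosome 13, 45389742 to 45412022) was at 43.5, 46.7 and 47.5 FPKM in Undifferentiated and at 12.1, 12.9 and 12.5 in Differentiated. This was the one fall past the thresholds among the 30 genes, with a log2 fold change of -1.90 ± 0.06 (edgeR adjusted p = 5.0e-188). Soat1 (ENSMUSG00000026600, chromosome 1, 156424525 to 156474331), which esterifies cholesterol for storage, was at 7.78 ± 0.324 and 6.27 ± 0.258 FPKM. Both efflux transporters rose. Abca1, which loads cholesterol onto lipid-poor apolipoproteins, was at 2.6, 2.25 and 2.26 FPKM and at 10.1, 10.8 and 8.43, and Abcg1, which exports to lipoprotein particles, was at 2.22, 1.82 and 1.66 FPKM and at 10.4, 9.81 and 9.36. Thus Mylip and the efflux pair, which share LXR as a known regulator, changed in opposite directions.

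**Figure D2:**
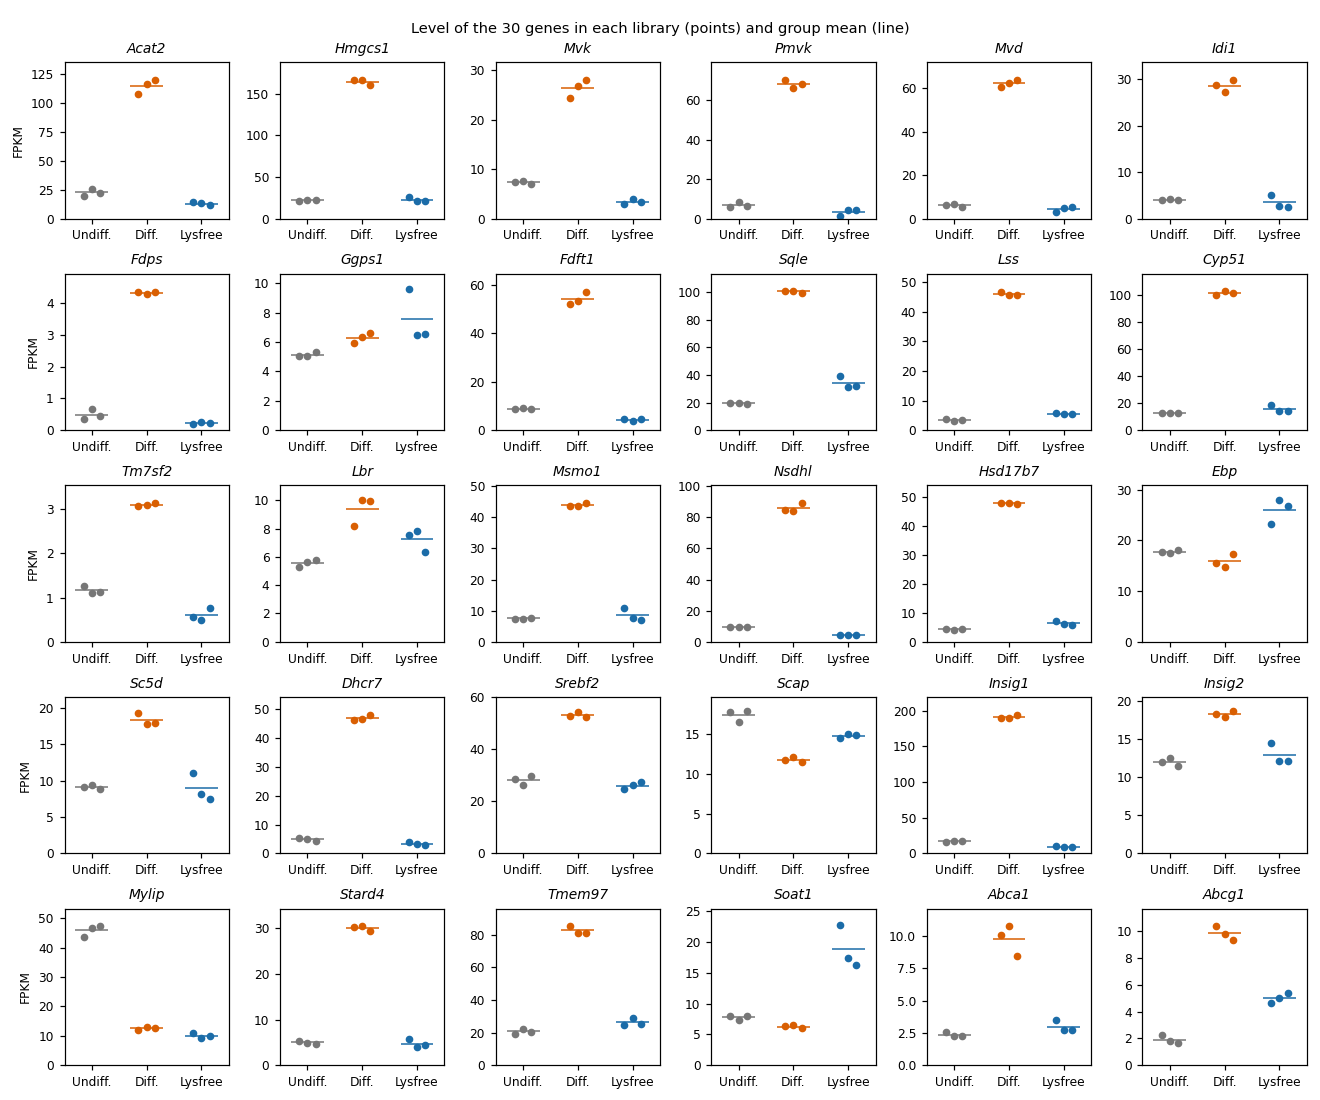
FPKM of each of the 30 genes in the 3 Undifferentiated, 3 Differentiated and 3 Lysfree libraries (points, left to right as replicates 1 to 3), with the group mean as a line and each axis starting at 0. The Differentiated mean was the highest in 25 genes, the Lysfree mean in 3 (Ggps1, Ebp, Soat1) and the Undifferentiated mean in 2 (Scap, Mylip).

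To describe the change with lysine in the same hormonal medium, Lysfree was compared with Differentiated. Without lysine the path was low. Of the 30 genes, 20 were lower in Lysfree, 1 was higher and 9 did not reach the thresholds (edgeR, adjusted p under 0.05 and 2-fold). Over the 24130 genes tested, 10.5% were lower and 8.14% were higher. The median log2 fold change of the 30 genes was -2.46, against -0.06 over all genes tested. FPKM did not overlap between the groups in 29 of the 30 genes, Ggps1 being the exception, and in 46.6% of all genes tested. This comparison shares its Differentiated libraries with the one before, so the 2 sets of fold changes are not independent and are given side by side in the plot of changes. Without Lysfree 1, 21 genes were lower, the added gene being Sc5d at a log2 fold change of -1.18.

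In Lysfree the 8 mevalonate and isoprenoid genes summed to 54.7 to 62.4 FPKM, and 7 of them fell. The largest falls were those of Pmvk and Fdps, with log2 fold changes of -4.21 ± 0.23 (edgeR adjusted p = 2.4e-12) and -4.17 ± 0.19. Pmvk was at 1.49, 4.47 and 4.48 FPKM in Lysfree, so Lysfree 1 lay far below the others, and its log2 fold change lay between -4.44 and -3.88 when each library was left out in turn. Mvd was at 2.94, 4.94 and 5.46 FPKM, again lowest in Lysfree 1. Idi1 was at 5.15, 2.74 and 2.51 FPKM, highest in that library. All of these values lay well under those in Differentiated. Acat2 fell to 13.0 ± 1.6 FPKM (log2 fold change -3.08 ± 0.1) and Mvk to 3.4 ± 0.599 (-2.89 ± 0.13). Hmgcs1 fell to 25.6, 21.4 and 20.8 FPKM, with a log2 fold change of -2.80 ± 0.09 (edgeR adjusted p = 1.5e-15). Ggps1 was at 9.65, 6.51 and 6.56 FPKM, with a log2 fold change of 0.32 ± 0.14 (edgeR adjusted p = 0.069).

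From squalene synthesis on, 9 of 12 enzymes fell, and the sum was 118 to 137 FPKM. Nsdhl (ENSMUSG00000031349, chromosome X, 72918557 to 72958514), the sterol dehydrogenase, fell most among the enzymes, to 4.25, 4.65 and 4.21 FPKM, with a log2 fold change of -4.23 ± 0.1 (edgeR adjusted p = 8.4e-18). Dhcr7 and Fdft1 followed with -3.73 ± 0.11 and -3.56 ± 0.11. Lss, Hsd17b7, Cyp51, Msmo1 and Tm7sf2 had log2 fold changes between -2.99 and -2.28. Sqle fell the least of the 9, to 39.3, 31.5 and 32.3 FPKM, with a log2 fold change of -1.49 ± 0.09. Among these 9 enzymes past the thresholds, falls thus ranged widely, from 2.81-fold for Sqle to 18.8-fold for Nsdhl. Sc5d stayed just short of 2-fold at -0.98 ± 0.12, and Lbr had a log2 fold change of -0.31 ± 0.12. Ebp was at 23.3, 27.9 and 26.8 FPKM, above every Differentiated library, with a log2 fold change of 0.78 ± 0.11 (edgeR adjusted p = 6.1e-06), short of 2-fold.

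Insig1 had the largest fall of the 30 genes, to 10.1, 8.87 and 8.53 FPKM, a log2 fold change of -4.32 ± 0.1 or 20-fold (edgeR adjusted p = 3.7e-18). Srebf2 was at 24.6, 26.3 and 27.4 FPKM, with a log2 fold change of -0.96 ± 0.08, just short of 2-fold. Scap and Insig2 had log2 fold changes of 0.40 ± 0.09 and -0.44 ± 0.1. Stard4 fell by 2.63 on the log2 scale, to 4.67 ± 0.923 FPKM, and Tmem97 fell by 1.58, to 26.4 ± 2.39 FPKM. Mylip was at 10.8, 9.1 and 9.99 FPKM, with a log2 fold change of -0.27 ± 0.11 (edgeR adjusted p = 0.062), so it was low with and without lysine in this medium. Soat1 was the one gene that rose past the thresholds, to 22.7, 17.4 and 16.3 FPKM, with a log2 fold change of 1.65 ± 0.11 (edgeR adjusted p = 8.8e-11). The efflux transporters differed in size. Abca1 fell to 3.47, 2.72 and 2.69 FPKM (log2 fold change -1.66 ± 0.12), and Abcg1 was at 4.65, 4.98 and 5.4 FPKM (-0.91 ± 0.12), short of 2-fold.

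**Figure D3:**
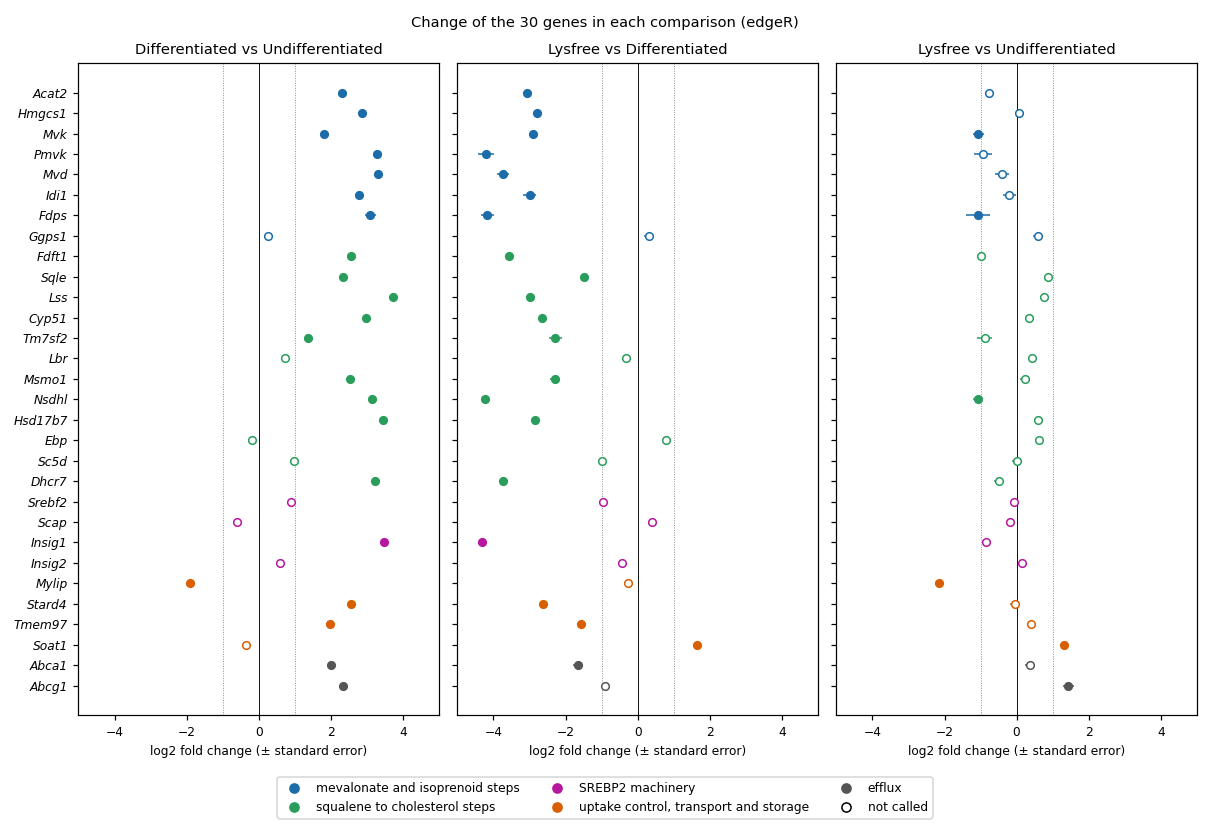
Log2 fold change of each gene (edgeR, bars are standard errors) in the 3 comparisons, coloured by role, with filled points for genes past the thresholds and dotted lines at a 2-fold difference. The first comparison lies mostly to the right of 0 and the second mostly to the left, and in the third most genes lie within 2-fold. Each pair of panels shares 3 libraries.

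To see how far Lysfree cells stood from cells that never received the medium, Lysfree was compared with Undifferentiated. The sums of the 20 enzymes overlapped, at 174 to 186 FPKM in Undifferentiated and 173 to 200 in Lysfree, but single genes differed in both directions. With the 2-fold threshold, 2 of the 30 genes were higher in Lysfree and 4 were lower (edgeR), against 5.52% and 8.76% of the 23994 genes tested. With the adjusted p alone, 11 were higher and 10 lower, against 18% and 17.1% of all genes tested. In each comparison the genes tested include many with few counts. An expression filter over all libraries kept 14195 genes, and the shares among those were not computed. The median log2 fold change was -0.02 both for the 30 genes and for all genes tested. FPKM did not overlap in 23 of the 30, against 43.5% of all genes tested.

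The 2 genes higher by more than 2-fold were Soat1 and Abcg1. Soat1 had a log2 fold change of 1.32 ± 0.11 (edgeR adjusted p = 1.0e-11), and each Lysfree library was above all other libraries of the study. Abcg1 had a log2 fold change of 1.44 ± 0.16 (edgeR adjusted p = 2.8e-09). The 4 lower genes were Mylip, Mvk, Nsdhl and Fdps. Mylip had a log2 fold change of -2.16 ± 0.11 (edgeR adjusted p = 3.0e-17). Mvk was at 7.47, 7.52 and 6.96 FPKM in Undifferentiated and at 2.85, 4.04 and 3.31 in Lysfree, with a log2 fold change of -1.06 ± 0.16. Nsdhl was at 9.28, 9.62 and 9.54 FPKM against 4.25, 4.65 and 4.21, with a log2 fold change of -1.07 ± 0.14. For both the groups lay apart, with Mylip furthest. Fdps was at 0.368, 0.661 and 0.445 FPKM against 0.203, 0.249 and 0.233, with a log2 fold change of -1.06 ± 0.33, the widest error of the 30 genes. The last 3 lay close to the threshold. Without Lysfree 1, Mvk had a log2 fold change of -0.97 and Fdft1 one of -1.04, which exchanged their places in the count. Without Undifferentiated 2, Fdps was at -0.77 and was lost, and without Lysfree 3, Pmvk, Fdft1 and Tm7sf2 were added, for 7 lower genes. Pmvk was added without Undifferentiated 1 or Lysfree 2, and Fdft1 without Undifferentiated 3.

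The smaller differences split the path. Among the mevalonate and isoprenoid steps, 4 genes passed the adjusted p as lower and 1 as higher. Among the steps from squalene synthesis to cholesterol, 4 passed as lower, Fdft1 included, and 6 as higher. Higher in Lysfree were Sqle (log2 fold change 0.86 ± 0.1), Lss (0.75 ± 0.11), Ebp (0.61 ± 0.11), Hsd17b7 (0.60 ± 0.13), Ggps1 (0.60 ± 0.14), Lbr (0.43 ± 0.12) and Cyp51 (0.34 ± 0.11). Lower were Fdft1 (-0.98 ± 0.13), Pmvk (-0.93 ± 0.24), Tm7sf2 (-0.89 ± 0.21), Acat2 (-0.76 ± 0.12) and Dhcr7 (-0.49 ± 0.14), next to Mvk, Nsdhl and Fdps. The enzymes directly before and after squalene therefore stood on opposite sides, Fdft1 at 4.6, 3.85 and 4.71 FPKM in Lysfree against 8.87, 9.33 and 8.58 in Undifferentiated, and Sqle at 39.3, 31.5 and 32.3 against 19.4, 19.8 and 19.3. Hmgcs1, Mvd, Idi1, Msmo1 and Sc5d did not pass, with log2 fold changes between -0.41 and 0.23. Some of the differences that passed varied in size when each library was left out in turn. Cyp51 ran from 0.16 to 0.41, Ggps1 from 0.37 to 0.70 and Pmvk from -1.15 to -0.61. Outside the enzymes, Insig1 was lower (-0.84 ± 0.12, edgeR adjusted p = 4.3e-07), and Tmem97 (0.40 ± 0.12) and Abca1 (0.36 ± 0.13) were higher. Srebf2, with a log2 fold change of -0.06 ± 0.1, Scap, Insig2 and Stard4 did not pass.

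**Figure D4:**
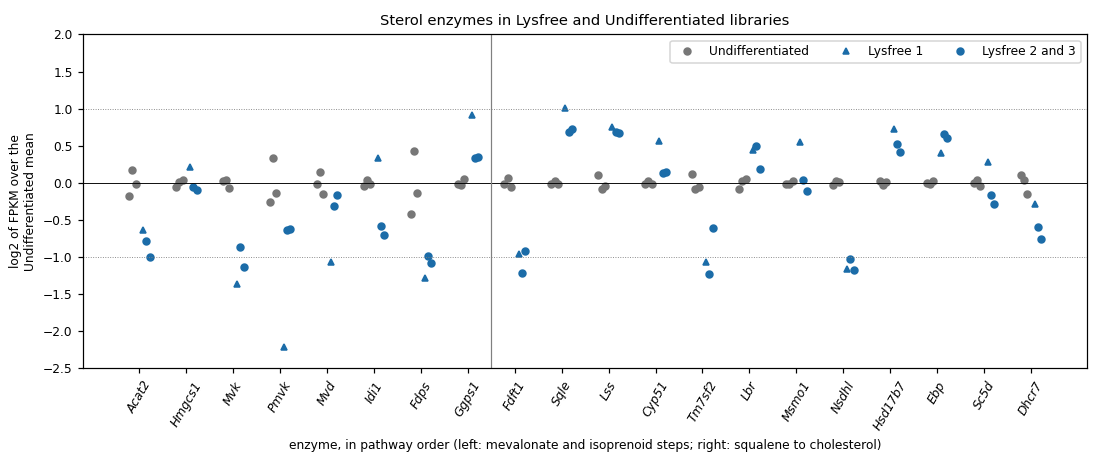
Log2 of the FPKM of each Undifferentiated and Lysfree library over the Undifferentiated mean for the 20 enzymes in the order of the path, with Lysfree 1 as triangles and dotted lines at a 2-fold difference. Lysfree points lie below the Undifferentiated ones for Mvk, Fdft1 and Nsdhl and above them for Sqle, Lss and Ebp, and Lysfree 1 lies far below for Pmvk.

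Reads of some genes can be shared with copies or neighbours. Transcripts of the 30 genes were aligned to all GENCODE vM21 transcripts, with at least 95% identity over at least 300 bases. Fdps matched the processed pseudogene Gm3571 at 98.9% identity over 1062 bases. Fdps had 1094 counts in all libraries together and Gm3571 had 2286. Gm3571 held 88, 119 and 85 counts in Undifferentiated, 583, 618 and 663 in Differentiated and 31, 35 and 64 in Lysfree, the same order of groups as Fdps. A second copy, Gm5873, held 366 counts, and since reads from nearly identical sequences may be assigned to either gene, the FPKM of Fdps is uncertain. Idi1 matched Gm13502 (100% over 684 bases, 123 counts against 6553), and Acat2 matched Acat3 (97.7%, 95 counts against 19942) and 445 bases of Tcp1 (98.7%). Tcp1 held 48956 counts, with 2828 to 4046 in Undifferentiated libraries, 5700 to 6516 in Differentiated and 5628 to 8497 in Lysfree, the highest being Lysfree 1, so the level of Acat2 is uncertain to the extent that reads of this stretch were shared. Among neighbours that overlap, Fdft1 (14805 counts) lies on the opposite strand to Ctsb, which had 111956 counts, Ggps1 overlaps Arid4b (8790 counts) and Cyp51 overlaps Akap9 (6790 counts). Tm7sf2 overlaps Vps51 on the same strand. The strand setting of the counting is not given in the sources used here, so these levels are uncertain to the extent of the overlap.

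Other genes of sterol handling, from lists of related genes, were read in the same fits, with the background shares of each comparison given above. Of 11 other sterol enzymes and uptake genes, 7 rose and 1 fell in Differentiated against Undifferentiated, and 1 rose and 7 fell in Lysfree against Differentiated. Scarb1, the receptor for high-density lipoprotein, had log2 fold changes of 3.92 ± 0.06 and -2.92 ± 0.09. Cyb5b and Por, which pass electrons to sterol enzymes, had 2.03 ± 0.05 and -1.35 ± 0.1, and 1.72 ± 0.05 and -1.67 ± 0.08. Soat2, the second cholesterol esterifying enzyme, rose in Differentiated (1.96 ± 0.14) and was above Undifferentiated in Lysfree as well (1.59 ± 0.18). Lrp1, a lipoprotein receptor named after its values were seen as the single gene of the list in the other direction, had -1.58 ± 0.05 and 1.68 ± 0.11.

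Of 15 genes that process SREBP or degrade sterol enzymes, 2 rose in Differentiated and 1 fell in Lysfree against Differentiated, with medians of 0.00 and 0.06, shares near or below those over all genes tested. The changed genes were Srebf1, the lipogenic SREBP (1.43 ± 0.06 and -1.56 ± 0.1), and the ubiquitin-conjugating enzyme Ube2g2 (1.02 ± 0.07 in Differentiated). Erlin1, an endoplasmic reticulum protein that binds cholesterol and takes part in degradation, was 2.80-fold higher in Lysfree than in Undifferentiated (log2 fold change 1.48 ± 0.11). Of 13 genes of intracellular sterol transport and ester hydrolysis, 2 rose and 1 fell in Differentiated, and 2 rose and 2 fell in Lysfree against Differentiated. Gramd1b, which moves cholesterol from the plasma membrane, had log2 fold changes of 2.24 ± 0.06 and -1.91 ± 0.09. Nceh1, a cholesteryl ester hydrolase, had -1.60 ± 0.12 and 2.64 ± 0.15, and Stard5, a sterol-binding protein, rose in Lysfree against Differentiated (1.47 ± 0.1). Gramd1c moved as Gramd1b did but was at no more than 0.139 FPKM.

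Among 10 oxysterol and LXR genes, 2 rose and 2 fell in Differentiated, and 2 rose and 3 fell in Lysfree against Differentiated. Nr1h3, which encodes LXR alpha, went from 4.25 ± 0.548 FPKM to 32.3 ± 0.55 in Differentiated and 5.94 ± 0.866 in Lysfree. Lpcat3, a phospholipid enzyme and known LXR target, had log2 fold changes of 2.5 ± 0.06 and -2.25 ± 0.09. Arl4c, another known LXR target, went the other way, with -1.48 ± 0.12 and 2.23 ± 0.15, as did the oxysterol hydroxylase Cyp7b1 (-2.70 ± 0.39 and 2.25 ± 0.42, at 0.156 ± 0.0409 FPKM in Differentiated). Rxra, the partner of LXR, named after its values were seen, fell in Lysfree against Differentiated (-1.15 ± 0.08). Of 14 genes that use isoprenoids outside sterols, 2 rose in Differentiated, Pdss1 of coenzyme Q synthesis (2.91 ± 0.12) and Nus1 of dolichol synthesis (2.23 ± 0.06), and both fell in Lysfree against Differentiated (-1.81 ± 0.13 and -2.13 ± 0.09). Chm, an escort of Rab prenylation, rose in Lysfree against Differentiated (1.11 ± 0.14), and Zmpste24, a protease of prenylated proteins, was above Undifferentiated in Lysfree (1.04 ± 0.13).

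Other programmes moved with the sterol genes. Of 14 genes of fatty acid synthesis, 11 rose in Differentiated and 8 fell in Lysfree against Differentiated, with medians of 1.61 and -2.08. Scd1, the stearoyl-CoA desaturase, had log2 fold changes of 5.29 ± 0.05 and -5.70 ± 0.14, and Acss2, which makes acetyl-CoA from acetate, 3.52 ± 0.07 and -3.81 ± 0.13. The lipogenic regulators Thrsp and Mlxipl, at 12.7 ± 0.425 and 0.704 ± 0.0474 FPKM in Differentiated, were at 0.0719 ± 0.0459 and 0.0221 ± 0.0212 FPKM in Lysfree, with as few as 1 count in a library. Of 12 cell division genes, 10 rose in Differentiated and 9 fell in Lysfree against Differentiated, while Mcm2, named after its values were seen, rose there (1.19 ± 0.09). Mki67, the proliferation antigen, had log2 fold changes of 2.04 ± 0.08 and -2.34 ± 0.11, and the mitotic kinases Plk1 and Aurka 2.31 ± 0.1 and -2.56 ± 0.14, and 2.51 ± 0.1 and -1.75 ± 0.11. Rrm2, the small subunit of ribonucleotide reductase, was also above Undifferentiated in Lysfree (1.53 ± 0.12). All 10 adipocyte markers rose in Differentiated and fell in Lysfree against Differentiated, and 7 of 8 fibroblast and preadipocyte markers fell and 4 rose. Of the 6 immune markers, 4 had counts to test in Differentiated against Undifferentiated. Cd68 rose (1.29 ± 0.21), and Csf1r, with at most 13 counts in a library, fell (-1.83 ± 0.69). In Lysfree against Undifferentiated they had 1.46 ± 0.23 and -4.55 ± 1.01. Against Undifferentiated, Lysfree was higher in 1 of the adipocyte markers, Cd36 (2.18 ± 0.13), and lower in 4. The lower ones were Retn (-8.78 ± 0.45, at a mean of 0.0109 FPKM in Lysfree), Adipoq (-3.74 ± 0.16), Cidec (-1.56 ± 0.14) and Cebpa (-1.43 ± 0.14). Lysfree was also lower in 4 of the fibroblast markers, while Fn1 (0.97 ± 0.09) and Thy1 (0.39 ± 0.1) were higher on the adjusted p alone. The part of serum, base medium, differentiation state and cell division in the changes of the sterol genes was not tested.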

How the data were processed

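Poly A RNA of 9 libraries was measured. The 30 genes and all lists were chosen with earlier results of these data known. Per the submitters' processing notes, reads were mapped to mm10 with HISAT2 2.0.5 and counted with featureCounts 1.5.0-p3. The annotation release is not given in the sources used here. The authors deposited raw counts per gene, and also FPKM, which equal count over gene length and library total times a constant per library. Groups came from the labels. Counts were tested with edgeR 4.0.16 (quasi-likelihood, TMM, Benjamini-Hochberg) under R 4.3.3. Each comparison had its own fit on 6 libraries and on the genes with at least 1 count among them. The standard error is the log2 fold change over the root of F. All 30 genes are named, and of each list up to 4, those with the largest changes among the called. Cell type markers were named outside this rule. Some list genes were counted but are not reported here by name. Copies were sought with BLAST 2.17.0, and motifs in RefSeq windows. Correlations of same-numbered libraries' deviations from their group means ran from -0.0844 to 0.115. No shared deviation by number was seen, which cannot show whether cultures were handled in matched sets, and the main fits used no pairing. Alternatives were DESeq2 1.42.0, other scalings, filters and thresholds, all 9 libraries in a single fit, a replicate block, limma 3.58.1 on log2(FPKM + 1) and log2(FPKM + 0.1), and leaving out each replicate. The tests were checked on simulated data.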

Additional observations from a re-analysis of the deposited data

How the results depend on the processing

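Counts of called genes among the 30 were least stable in Lysfree vs Undifferentiated, where several genes lie close to a 2-fold difference. Without a fold threshold, 4 genes were lower in Differentiated vs Undifferentiated, 3 were higher in Lysfree vs Differentiated, and 11 were higher and 10 lower in Lysfree vs Undifferentiated, with 11260, 9280 and 8428 of all genes called in these comparisons. The glmTreat test against a 2-fold change left 1 lower gene in Lysfree vs Undifferentiated, Mylip, and called 2657 genes in Lysfree vs Differentiated and 1596 in Lysfree vs Undifferentiated. On log2(FPKM + 1), limma also left 1 lower gene there and called 2726, 2198 and 1474 genes, against 5329, 4507 and 3426 with edgeR. A pseudocount shrinks the change of low genes, and Tm7sf2 in Differentiated vs Undifferentiated went to 0.92. Leaving out each replicate gave 21 higher and 1 lower in Differentiated vs Undifferentiated, 1 and 20 to 21 in Lysfree vs Differentiated, and 2 and 3 to 7 in Lysfree vs Undifferentiated. Sc5d in Lysfree vs Differentiated passed 2-fold with DESeq2 (-1), with size factors by the median of ratios (-1) and after the expression filter (-1.01). With limma on log2(FPKM + 0.1), Sc5d (-1.05) and Srebf2 (-1.02) passed there. In Lysfree vs Undifferentiated, Fdft1 was added after the expression filter (-1.01) and with limma on log2(FPKM + 0.1) (-1.01). Fdps was lost with the latter (-0.82). Differences near 0 in Lysfree vs Undifferentiated, none past the thresholds, changed sign. Sc5d, at 0.01, was at -0.01 with DESeq2, with size factors by the median of ratios and with the replicate block, at -0.03 after the expression filter, at -0.05 and -0.06 with limma, at -0.01 without Undifferentiated 3 and at -0.20 without Lysfree 1. Hmgcs1 was at -0.05 and Msmo1 at -0.01 without Lysfree 1. Stard4, at -0.05, was at 0.01 without Undifferentiated 1, 0.05 without Lysfree 2 and 0.00 without Lysfree 3. Over all left-out replicates, Sc5d ran from -0.20 to 0.11, Hmgcs1 from -0.05 to 0.13, Msmo1 from -0.01 to 0.36 and Stard4 from -0.24 to 0.05. The cause was not tested. With the replicate block, 5 genes were lower in Lysfree vs Undifferentiated instead of 4, Pmvk being added at -1.02, and no other call on the 30 genes changed. Of 18 checks, each among the 3 libraries of another group, a library correlated best with its own number in 7. Depth limits Fdps most, with as few as 15 counts in a library.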
